A study of Mus musculus with 12 samples.

Results

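The genes described here are 8 rows of the deposited count table, taken by name: Dmbt1, Lypd8, Pglyrp1, Pigr, Slpi, Ang4, Pla2g2a and Lyz1. They encode mucosal antimicrobial and bacteria-binding proteins other than the Reg family and the proteins that withhold metal ions from microbes. They are 8 of the 35869 gene symbols in the table. Of these, 7 passed the expression filter and were tested, and Lyz1 did not pass it.

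The lining of the colon releases soluble proteins that clump bacteria, block their movement, open their membranes or cell walls, or carry antibodies into the lumen. Several are known from mouse intestine as products of goblet or Paneth cells, and others come from the absorptive colonocytes. IL-22 is known to act on gut epithelium through STAT3 and to induce antimicrobial genes there, and IL-1b is known to act through its receptor and NF-kB.

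The libraries came from colonoids, hollow epithelial cultures, of C57BL/6 mice. Crypts from dissected colons were grown in Matrigel, a basement membrane gel, in medium with EGF and L-WRN conditioned medium, which supplies Wnt, R-spondin and noggin. All groups shared these factors, and the labels name no other added cell type. There were 4 groups of 3 libraries: unstimulated, recombinant mouse IL-22 at 1 ng/mL, recombinant mouse IL-1b at 100 ng/mL, and both cytokines at these doses, with stimulation for 12 h. The question behind the series was what IL-1 receptor signalling does within intestinal epithelial cells. Whether replicates were separate animals or separate cultures is not stated in the labels. The p-values therefore refer to the spread among these particular libraries, and that spread may be technical. In such bulk RNA, fewer cells of a type and less RNA per cell cannot be told apart.

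The libraries held 4703902 to 5804033 counts, on average 5400895 in the unstimulated group, 5462352 with IL-1b, 5021865 with IL-22 and 4989629 under the combined treatment. Levels are given as counts or as CPM, that is, counts brought to a common library size by TMM scaling, and means carry the SD with n = 3. Changes are log2 fold changes ± SE from the edgeR quasi-likelihood test over 13987 genes, and "rose" and "fell" are kept for genes whose adjusted p (Benjamini-Hochberg) was under 0.05. All 11 epithelial marker genes were detected in every group. Of 14 Paneth cell marker genes in the table, 10 had no count in any library, and Defa24 was the Paneth defensin with any count, at most 3. Of 20 immune marker genes, 6 were tested, and the neutrophil genes Mpo and Elane had no count in any library. IL-1b replicate 1 stood apart, with 104 counts of the leukocyte gene Ptprc while IL-1b replicates 2 and 3 had 20 and 12, and the other groups 0 to 9. The STAT3 feedback gene Socs3 rose by 3.95 ± 0.16 on the log2 scale with IL-22 (edgeR, Benjamini-Hochberg adjusted p = 1.84e-09).

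The 8 genes spanned nearly the whole range of count levels in the table. Per base of the longest transcript, Lypd8 had a mean of 1.04 counts, Dmbt1 0.927, Pigr 0.842, Pglyrp1 0.572, Slpi 0.379, Ang4 0.302, Pla2g2a 0.0249 and Lyz1 0.00495. Of all genes tested, 0.1% lay at or above Lypd8 and 7.26% at or above Slpi. The order was the same in all 12 libraries between Lypd8 and Dmbt1, Pigr and Pglyrp1, Pglyrp1 and Slpi, and Ang4 and Pla2g2a. Dmbt1 lay above Pigr in 8 of 12 libraries, Slpi above Ang4 in 10, and Pla2g2a above Lyz1 in 7, so these neighbours were not separated in every sample.

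**Figure D1:**
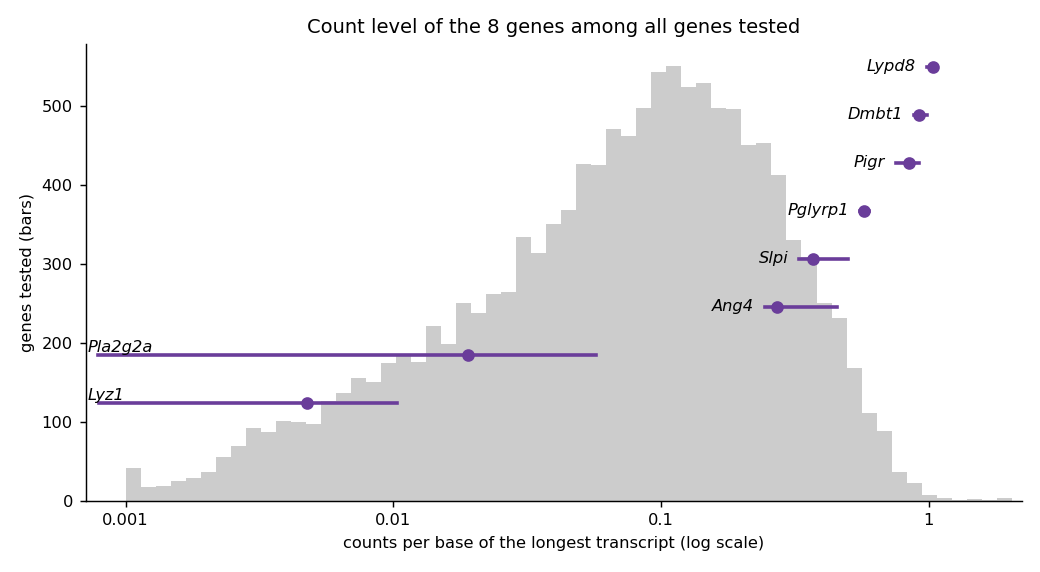
Counts per base of the longest transcript on a log axis, with grey bars for the number of tested genes at each level and, for each of the 8 genes, a dot at the median and a line from the lowest to the highest of the 12 libraries. The height of a dot has no meaning, and the lines of Pla2g2a and Lyz1 are drawn only as far as the left edge. Lypd8, Dmbt1 and Pigr sit at the right end near 1 count per base, and their lines are short.

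The counts of Lypd8 and Pglyrp1 varied less than library size. Library totals differed by 1.23 times between the smallest and the largest library, whereas Lypd8 counts differed by 1.09 times and Pglyrp1 counts by 1.08 times. Dmbt1 counts differed by 1.12 times and Pigr counts by 1.22 times. The variance over the 12 libraries, divided by the mean, was 0.667 for Lypd8 and 0.446 for Pglyrp1, below the value of 1 that random sampling of reads gives. It was 12.7 for Dmbt1 and 14.3 for Pigr. These values were taken across all 4 groups, so they include differences between groups and do not give the spread of replicates. Within a group Dmbt1 counts lay close together, at 5505 to 5634 unstimulated and 6083 to 6178 with IL-22. The libraries with IL-22 were smaller on average, and dividing a count that does not follow library size by that size gives a higher CPM there. Over the 424 tested genes with 0.5 or more counts per transcript base, the median log2 change with IL-22 was 0.12 (quartiles 0.05 and 0.21). It was -0.09 for the 7308 genes below 0.1. Whether the division made this difference was not tested. How the deposited counts were made is not given in the sources used here. Changes of Lypd8, Dmbt1, Pigr and Pglyrp1 may therefore be compressed or shifted, and their raw counts are given beside each result.

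The largest change of any member was that of Pla2g2a with IL-22. With IL-22 against unstimulated, 3 of the 7 tested genes rose and none fell, namely Pla2g2a, Slpi and Dmbt1. Pla2g2a passed the expression filter only through the groups with IL-22, so it had to differ, and its place in this and the later counts is a description. Over all genes tested, 11.9% rose and 10.6% fell in that comparison. This split of 1661 higher and 1483 lower genes became 1206 and 1991 with total counts, and 565 and 2267 without library scaling. The median log2 change was 0.19 over the 7 genes and 0.00 over all genes. With both cytokines against unstimulated, 5 rose (Pla2g2a, Ang4, Slpi, Dmbt1 and Pglyrp1) and none fell, where 13.7% of all genes rose and 13.3% fell. Without library scaling, 663 genes were called higher and 2779 lower there. The median was 0.26 over the 7 genes. The count of 5 members was 3 with DESeq2, 1 without library scaling, 1 with the trend on count level removed and 2 to 6 without 1 library. Of all genes, 3783 were called there, and 3121, 3442, 3118 and 2648 to 4055 under the same alternatives. With IL-1b against unstimulated, none of the 7 passed the edgeR test, where 0.0715% of all genes did. At an unadjusted p under 0.05 there was 1 of the 7 (Ang4) and 1338 of all genes, and DESeq2 called 0 of the 7 and 32 of all genes.

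**Figure D2:**
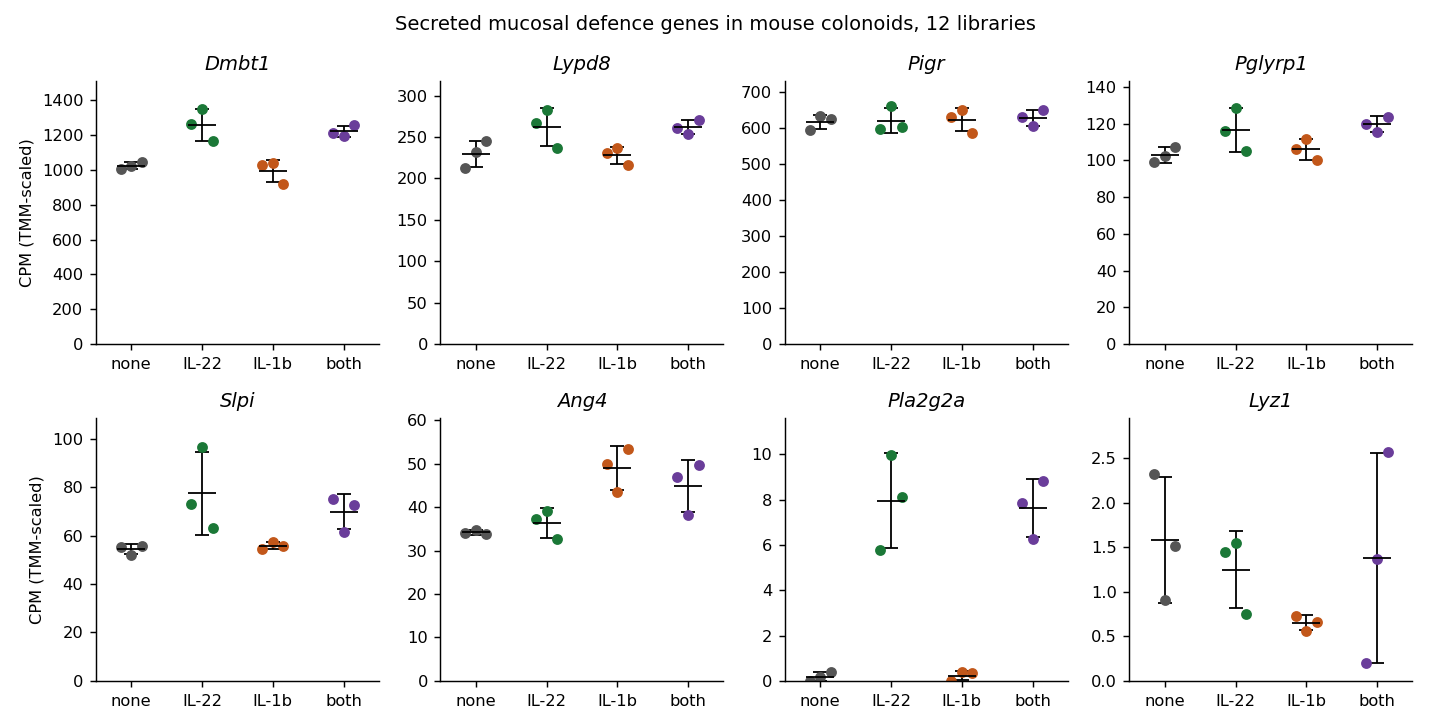
CPM of each of the 8 genes in the 12 libraries (dots), with the group mean (long bar) and SD (short caps, n = 3), for unstimulated (none), IL-22, IL-1b and both cytokines, each axis starting at 0. Pla2g2a lies near 0 without IL-22 and between 5.78 and 9.97 CPM in all 6 libraries with it, and Ang4 is highest with IL-1b.

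**Figure D3:**
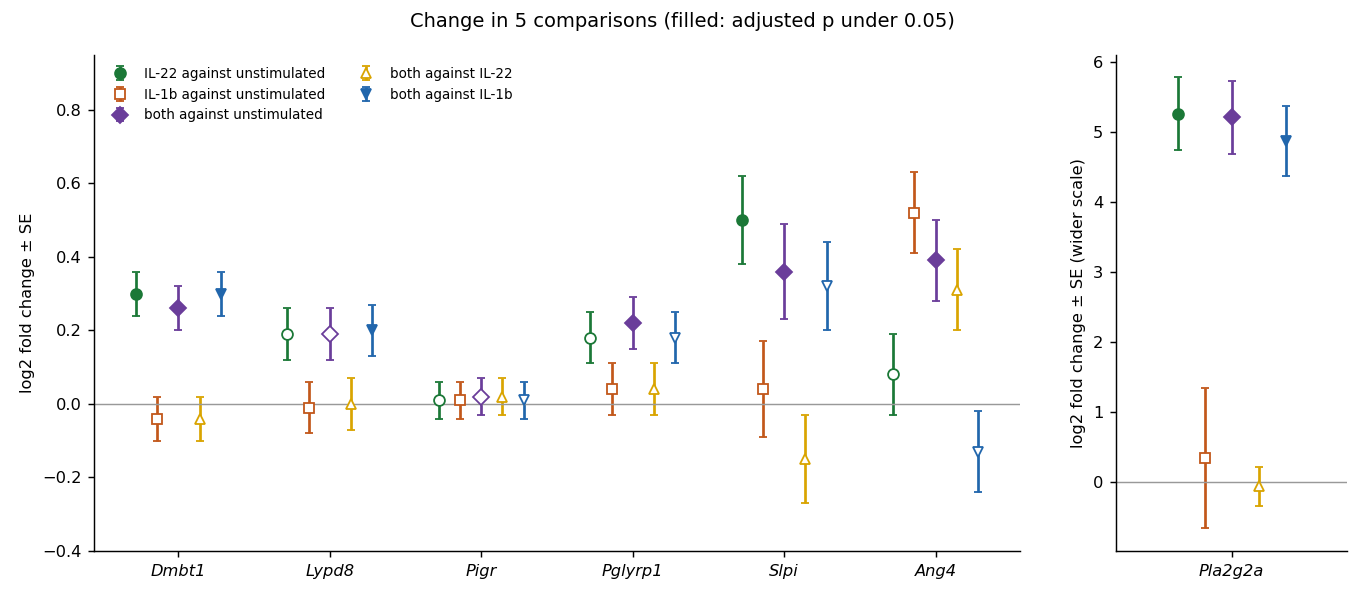
Log2 fold change ± SE of the 7 tested genes in 5 comparisons, filled where the adjusted p was under 0.05, with Pla2g2a on a wider axis of its own. Pla2g2a stands at 5.26 with IL-22 and 5.21 with both cytokines, Slpi at 0.50 with IL-22, and the Ang4 point for IL-1b at 0.52 is open.

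Dmbt1 (chr7:131032053-131121630, plus strand, GRCm38) encodes a large scavenger receptor cysteine-rich glycoprotein that binds and clumps bacteria. By mean count it ranked as number 2 of all genes in the table. Its counts were 5634, 5609 and 5505 in the unstimulated libraries and 6131, 6083 and 6178 with IL-22. They were 5588, 5513 and 5537 with IL-1b, and 6007, 6099 and 5860 with both cytokines. All 6 libraries with IL-22 lay above all 6 without it, on raw counts as well as on CPM. The level was 1022.7 ± 20.2 CPM unstimulated, 1259.5 ± 91.3 with IL-22, 995 ± 64.4 with IL-1b and 1221.6 ± 31.9 under both (SD, n = 3). Dmbt1 rose by 0.30 ± 0.06 with IL-22 (edgeR, Benjamini-Hochberg adjusted p = 0.00234), by 0.26 ± 0.06 with both against unstimulated (0.00521) and by 0.30 ± 0.06 with both against IL-1b (0.00218). The change with IL-1b alone was -0.04 ± 0.06. With both, the Dmbt1 call against unstimulated was lost without library scaling (0.10, adjusted p = 0.0555) and with the count-level trend removed (0.12, 0.147), and the call against IL-1b was lost with that trend removed (0.15, 0.0803). The size of the IL-22 change turned on the treatment of the counts: it was 0.14 without any library scaling, 0.15 after the trend on count level was removed, where the call was lost (adjusted p = 0.0807), and 0.55 after a correction for read positions counted once.

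Lypd8 (chr11:58379043-58390728, plus strand) encodes a heavily glycosylated Ly6/PLAUR-domain protein, released from colonocytes in mice, that binds flagellated bacteria and keeps them off the epithelium. Its counts were 1196, 1274 and 1290 unstimulated, 1293, 1273 and 1254 with IL-22, 1258, 1255 and 1302 with IL-1b, and 1295, 1294 and 1263 with both. The groups overlapped on raw counts, and the unscaled log2 ratio of IL-22 to unstimulated was 0.02. On CPM it went from 229.8 ± 15.9 unstimulated to 261.8 ± 23.2 with IL-22 and 262 ± 8.68 with both (SD, n = 3). These log2 differences of 0.19 ± 0.07 did not pass the test (edgeR, Benjamini-Hochberg adjusted p = 0.0657 and 0.0551). With both against IL-1b Lypd8 passed at 0.20 ± 0.07 (adjusted p = 0.0439). That call was lost without any one of the IL-1b libraries or of the libraries with both cytokines, or without unstimulated replicate 2 (adjusted p from 0.0505 to 0.172), and after trend removal the value was 0.04.

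Pglyrp1 (chr7:18871331-18890459, plus strand) encodes a secreted protein that recognises peptidoglycan, the polymer of bacterial cell walls. Its counts were 556, 563 and 566 unstimulated, 561, 581 and 557 with IL-22, 577, 593 and 603 with IL-1b, and 595, 589 and 577 with both. All 6 libraries with IL-1b, alone or combined, held more raw Pglyrp1 counts than the 3 unstimulated ones, and IL-22 replicate 2 (581) lay within their range. After scaling, the libraries with IL-1b alone overlapped the unstimulated ones. The log2 difference with IL-1b was 0.04 ± 0.07 and did not pass (edgeR, Benjamini-Hochberg adjusted p = 0.87). On CPM, the level went from 102.9 ± 4.16 unstimulated to 116.5 ± 11.8 with IL-22, 106 ± 5.64 with IL-1b and 119.8 ± 4.17 under both (SD, n = 3). With both against unstimulated Pglyrp1 rose by 0.22 ± 0.07 (edgeR, Benjamini-Hochberg adjusted p = 0.0395), and with IL-22 alone the difference of 0.18 ± 0.07 did not pass (0.101). The combined call was lost without unstimulated replicate 1 or 2, IL-1b replicate 1 or replicate 1 or 3 of both (adjusted p from 0.0524 to 0.126), and the value without library scaling was 0.06. Of the 50-base windows of Pglyrp1 transcripts, 2.67% also occur in transcripts of other genes.

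Pigr (chr1:130826684-130852249, plus strand) encodes the polymeric immunoglobulin receptor, which carries dimeric IgA across the epithelium and is cleaved to release secretory component. Its counts were 3344, 3480 and 3303 unstimulated, 2902, 2984 and 3197 with IL-22, 3433, 3463 and 3537 with IL-1b, and 3131, 3091 and 3027 with both. On raw counts, all 6 libraries with IL-22 lay below all 6 without it, while on CPM the groups overlapped. The level was 618.4 ± 19.8 CPM unstimulated, 621 ± 34.6 with IL-22, 623.5 ± 32.3 with IL-1b and 629 ± 21.9 under both (SD, n = 3). The log2 difference with IL-22 was 0.01 ± 0.05 (edgeR, Benjamini-Hochberg adjusted p = 0.954), and those with IL-1b and with both were 0.01 ± 0.05 and 0.02 ± 0.05. The IL-22 direction depended on the scaling: Pigr stood at -0.05 with total counts, at -0.14 with the count-level trend removed, at -0.16 without scaling (adjusted p = 0.032) and at -0.22 after the position correction (0.0311). Without scaling the median of all genes also moved, to -0.16 in this comparison. Under each of these 4 treatments and with TMM scaling the Dmbt1 value exceeded the Pigr value, a difference that was not tested.

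**Figure D4:**
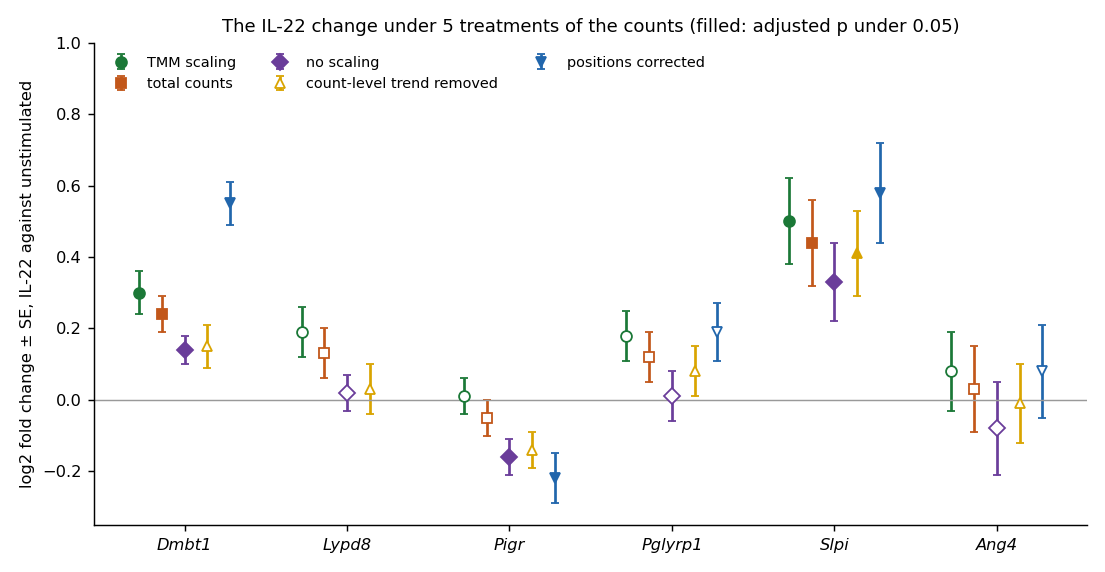
Log2 fold change ± SE of 6 genes for IL-22 against unstimulated under 5 treatments of the counts, filled where the adjusted p was under 0.05. Slpi is filled under all 5, from 0.33 to 0.58, and Pigr lies on both sides of 0. Lypd8 has no point for the position correction because its highest count, 1302, passed its 1284 exon bases.

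Slpi (chr2:164354070-164389095, minus strand) encodes the secretory leukocyte protease inhibitor, a whey-acidic-protein domain protein that inhibits neutrophil elastase and has antibacterial activity. It shares 1 exon base with the microRNA gene Mir7678. Its counts were 311, 287 and 295 unstimulated, 353, 436 and 335 with IL-22, 297, 304 and 336 with IL-1b, and 373, 315 and 338 with both. All 3 IL-22 libraries lay above the unstimulated ones, and IL-22 replicate 2 was the highest. The level went from 54.5 ± 2.03 CPM unstimulated to 77.5 ± 17.2 with IL-22, 55.9 ± 1.30 with IL-1b and 69.8 ± 7.14 under both (SD, n = 3). Slpi rose by 0.50 ± 0.12 with IL-22 (edgeR, Benjamini-Hochberg adjusted p = 0.00996), a 1.42-fold change. This call was kept under every alternative run, with values from 0.32 to 0.64. Without IL-22 replicate 2 the value was 0.32 (adjusted p = 0.0387), more than 1.5 times smaller.

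With both cytokines against unstimulated, Slpi stood at 0.36 ± 0.13 and just passed (edgeR, Benjamini-Hochberg adjusted p = 0.0481). Leaving out any 1 library other than IL-22 replicate 2 or 3 or replicate 2 of both ended that call (adjusted p from 0.0542 to 0.159). The change with IL-1b alone was 0.04 ± 0.13, and with both against IL-22 it was -0.15 ± 0.12. Slpi is also made by neutrophils and macrophages. The neutrophil genes Mpo and Elane were at 0 in every library, Csf3r had at most 1 count, and the macrophage lysozyme gene Lyz2 was at 0 in all 3 IL-22 libraries. Of the 6 immune markers tested, Cd68 (1.76 ± 0.27) and Cd14 (0.65 ± 0.09) rose with IL-22 and none fell. Of all genes, 11.9% rose and 10.6% fell there. The median log2 difference of the 6 was 1.48, a value that includes genes near the floor such as Ptprc and Laptm5. Ptprc had 2 to 9 counts with IL-22 and 0 to 2 unstimulated, Laptm5 had 3 to 10 and 1 to 5, and Itgam had 15 to 19 and 5 to 17. The summed CPM of the 20 immune markers was 71.3 to 80.8 unstimulated and 115 to 140.2 with IL-22, and the part of these genes in the Slpi result was not tested.

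Pla2g2a (chr4:138831857-138835186, plus strand) is the gene of the group IIA secreted phospholipase, an enzyme that hydrolyses the membranes of Gram-positive bacteria and is a Paneth cell product in other mouse strains. In C57BL/6 mice it is known to carry a mutation that disrupts the protein, and GENCODE M21 lists it as a polymorphic pseudogene. Its counts were 0, 1 and 2 unstimulated, 28, 45 and 43 with IL-22, 0, 2 and 2 with IL-1b, and 39, 32 and 41 with both. The 6 libraries with IL-22 thus held at least 28 counts and the 6 without it at most 2. Summed over the group, 116 counts with IL-22 stood against 3 unstimulated, a ratio of 43.2 with an exact 95% counting interval from 14.4 to 213. For both cytokines against unstimulated the sums were 112 and 3, a ratio of 41.6 (13.9 to 205). Intervals cover counting error only. The fitted changes were 5.26 ± 0.52 with IL-22 (edgeR, Benjamini-Hochberg adjusted p = 1.06e-05) and 5.21 ± 0.52 with both (9.11e-06), and they depend on the prior count because the unstimulated group is almost empty. Since Pla2g2a entered the test only through the groups with IL-22, these p-values are no independent support.

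The size of the Pla2g2a ratio rested on few unstimulated counts. It was 28.4 without unstimulated replicate 1 and 87.9 without unstimulated replicate 3, and 38.2 to 49.0 without any other library of the comparison. With IL-1b, 4 counts against 3 gave a ratio of 1.30 (0.22 to 8.89), so a change of several-fold in either direction was not detectable at this depth. The fitted Pla2g2a difference with IL-1b was 0.34 ± 1.00 and did not pass (edgeR, Benjamini-Hochberg adjusted p = 0.927). Without 1 library it ranged from -0.20 to 1.21, and it was 0.87 ± 0.94 without IL-1b replicate 1. In a single library 3 counts stood for 0.499 to 0.665 CPM. Adding IL-1b to IL-22 gave -0.06 ± 0.28 on the log2 scale. With IL-22 the Pla2g2a level was 7.95 ± 2.10 CPM (SD, n = 3). Per kilobase of transcript this was 10.1 CPM, below Ang4 at 51.2 and Slpi at 88.5.

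Pla2g2a lies inside the span of Pla2g5 (chr4:138799244-138863482, minus strand), the gene of the group V secreted phospholipase, with no shared exon base. Counting by strand is not given in the sources used here, so RNA from introns of Pla2g5 cannot be told apart from Pla2g2a RNA in these counts. Pla2g5 itself had 49, 56 and 68 counts unstimulated, 313, 364 and 368 with IL-22, 44, 82 and 83 with IL-1b, and 306, 223 and 315 with both. It rose by 2.75 ± 0.21 with IL-22 (edgeR, Benjamini-Hochberg adjusted p = 1.24e-06) and by 2.44 ± 0.21 with both (2.45e-06), so both neighbours were high in the same 6 libraries. Summed Pla2g2a counts were 3 beside 173 of Pla2g5 in the unstimulated group and 116 beside 1045 with IL-22. Pla2g2f, a group IIF phospholipase gene on the same chromosome, had 84, 79 and 124 counts unstimulated and 51, 34 and 40 with both, and fell by 1.05 ± 0.23 with both (0.00458), while its difference of -0.43 ± 0.22 with IL-22 did not pass. Pla2g10 and Pla2g12a stood at 0.03 ± 0.07 and 0.38 ± 0.21 with IL-22 and did not pass.

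Ang4 (chr14:51763878-51773590, minus strand) encodes an angiogenin-family ribonuclease, known from mouse Paneth and goblet cells, that kills gut bacteria. Its counts were 191, 191 and 178 unstimulated, 180, 177 and 173 with IL-22, 272, 231 and 321 with IL-1b, and 233, 195 and 231 with both. All 6 libraries that received IL-1b lay above all 6 that did not, on raw counts. The level was 34.2 ± 0.504 CPM unstimulated, 36.3 ± 3.37 with IL-22, 48.9 ± 5.05 with IL-1b and 44.9 ± 5.95 under both (SD, n = 3). On CPM the IL-22 group and the group with both cytokines overlapped by 1 library, since IL-22 replicate 2 held 39.2 CPM and replicate 2 of both held 38.2.

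The log2 difference of Ang4 with IL-1b was 0.52 ± 0.11, a 1.43-fold value with an unadjusted edgeR p of 0.000302. After Benjamini-Hochberg adjustment over all genes the edgeR p was 0.156, so it did not pass. Values lay between 0.45 and 0.61 without any 1 library, and without IL-1b replicate 1, the library with 104 Ptprc counts, the value was 0.51. Ang4 was highest in IL-1b replicate 3, where Ptprc had 12 counts. Every library with IL-1b alone held more Ptprc counts (12 to 104) than any library of the other groups (0 to 9). The leukocyte gene Laptm5 had 28 to 130 counts with IL-1b alone, 1 to 5 unstimulated and 2 to 25 with both. The part of leukocyte RNA in the Ang4 difference was not tested. With no expression filter the call was made, at 0.53 (adjusted p = 0.00405). With both cytokines against unstimulated Ang4 rose by 0.39 ± 0.11 (adjusted p = 0.0181), a call lost without replicate 1 (0.0686) or replicate 3 (0.0917) of both. The Ang4 call was also lost with the count-level trend removed (0.29, adjusted p = 0.0717), without library scaling (0.23, 0.185) and without unstimulated and IL-1b replicate 1 together (0.39, 0.0677). With both against IL-22 the difference was 0.31 ± 0.11 (adjusted p = 0.37), and with IL-22 alone it was 0.08 ± 0.11, then -0.08 without library scaling and -0.01 with the count-level trend removed.

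Markers of the cells that make Ang4 were set beside it. With IL-1b, none of 20 goblet cell genes, none of 8 deep crypt secretory cell genes and neither of the 2 Paneth cell genes tested passed. Of all genes, 0.0715% passed the edgeR test with IL-1b, so these counts say little about the cells. With IL-22, 8 goblet genes fell and 1 rose, and 3 deep crypt secretory genes fell, where 11.9% of all genes rose and 10.6% fell. The summed CPM of the Paneth list was 3.03 to 3.74 unstimulated, 3.76 to 8.98 with IL-1b, 4.15 to 6.40 with IL-22 and 8.23 to 17.2 with both. In that list the matrix metalloproteinase gene Mmp7 rose with both (3.90 ± 0.48, edgeR, Benjamini-Hochberg adjusted p = 5.1e-05). Its difference of 1.89 ± 0.58 with IL-1b alone did not pass (0.35). Mmp7 had 2 to 6 counts per library unstimulated, 6 to 13 with IL-22, 8 to 25 with IL-1b and 33 to 68 with both. It may have passed the expression filter mainly through the group with both, so the p-value there is no independent support. Part of the Ang4 sequence, 31 of 660 windows of 50 bases, also occurs in Ang2 or Ang5, which had at most 1 count in any library.

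Among other ribonuclease genes of this family, Rnase1 rose with IL-22 by 1.04 ± 0.30 (edgeR, Benjamini-Hochberg adjusted p = 0.0226) and with both by 1.17 ± 0.29 (0.00913). Rnase1 had 45 summed counts with IL-1b, against 49 unstimulated, 91 with IL-22 and 100 with both. Ang and Rnase4 stood at 0.07 ± 0.15 and -0.11 ± 0.09 with IL-22 and did not pass. Both are uncertain, since these neighbours share exon bases on the same strand.

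Lyz1 (chr10:117287797-117292868, minus strand) encodes the lysozyme of mouse Paneth cells, which cleaves peptidoglycan. Its counts were 13, 5 and 8 unstimulated, 7, 7 and 4 with IL-22, 4, 3 and 4 with IL-1b, and 1, 7 and 12 with both. These counts are near the floor in every group. Summed, they were 26, 18, 11 and 20, and the IL-1b to unstimulated ratio was 0.413 with an exact 95% counting interval of 0.184 to 0.866. The IL-1b counts did not overlap the unstimulated ones, but Lyz1 was not tested in the main fit and the interval leaves out the spread between replicates. In the fit with no expression filter, its log2 difference with IL-1b was -1.24 ± 0.58 and did not pass (edgeR, Benjamini-Hochberg adjusted p = 0.518). With the filter of 1 CPM in 6 libraries it was -1.24 ± 0.62 and did not pass either (0.537). The neighbouring copy Lyz2 had at most 2 counts, and 16.1% of the 50-base windows of Lyz1 also occur in Lyz2, so a count may be assigned to either.

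Adding the second cytokine was compared directly. With both against IL-22 none of the 7 genes passed the edgeR test, where 0.0786% of all genes did. At an unadjusted p under 0.05 there was 1 of the 7 (Ang4) and 1440 of all genes, and DESeq2 called 0 and 87. With both against IL-1b, 3 rose (Pla2g2a, Dmbt1 and Lypd8) and none fell, where 13.3% of all genes rose and 13.0% fell. DESeq2 called 3 of the 7 and 3018 of all genes. Of all genes, 582 were called higher and 3301 lower without library scaling. In that fit the median of all genes was -0.19, and Pigr was called lower at -0.17 (edgeR, Benjamini-Hochberg adjusted p = 0.0152). Pigr was also called lower with the position correction (-0.27, 0.00831), where the median was -0.01. With the count-level trend removed the calls of Dmbt1 and Lypd8 were lost. Pla2g2a stood at 4.87 ± 0.50 in this comparison, from 112 against 4 summed counts, and at 4.34 ± 0.50 without IL-1b replicate 1. For the interaction, which asks whether the IL-1b effect differed with and without IL-22, none of the 7 passed, where 0% of all genes did. No member had an unadjusted interaction p under 0.05, against 705 of all genes, and DESeq2 called 0 of the 7 and 4 of all genes. The smallest unadjusted edgeR p was 0.197, for Ang4, at -0.21 ± 0.16. The Slpi interaction was -0.18 ± 0.18.

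Promoter sequences are shown for 3 genes because they carry the contrast between members: Ang4 was highest with IL-1b, Slpi rose with IL-22, and Pigr did not pass the test in any comparison. They are RefSeq sequences on GRCm38.p6, from 250 bases before to 50 bases after the annotated start, written 5′ to 3′ on the strand of the gene. Capitals mark a match to TTCNNNGAA, the core letters bound by STAT factors, which read the same on both strands. The 3 windows are chr14:51773541-51773840 on the minus strand for Ang4, chr1:130826434-130826733 on the plus strand for Pigr and chr2:164356458-164356757 on the minus strand for Slpi.
Ang4: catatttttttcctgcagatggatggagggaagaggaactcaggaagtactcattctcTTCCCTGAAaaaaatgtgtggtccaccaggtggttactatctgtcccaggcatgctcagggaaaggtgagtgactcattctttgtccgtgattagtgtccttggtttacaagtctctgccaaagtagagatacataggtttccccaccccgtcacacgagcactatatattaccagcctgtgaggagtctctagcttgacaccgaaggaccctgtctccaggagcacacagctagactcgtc
Pigr: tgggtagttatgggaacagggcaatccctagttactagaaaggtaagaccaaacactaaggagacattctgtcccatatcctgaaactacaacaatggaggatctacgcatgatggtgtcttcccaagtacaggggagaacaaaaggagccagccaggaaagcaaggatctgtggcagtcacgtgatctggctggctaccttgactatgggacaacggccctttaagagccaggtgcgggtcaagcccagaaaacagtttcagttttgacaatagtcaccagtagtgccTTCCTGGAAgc
Slpi: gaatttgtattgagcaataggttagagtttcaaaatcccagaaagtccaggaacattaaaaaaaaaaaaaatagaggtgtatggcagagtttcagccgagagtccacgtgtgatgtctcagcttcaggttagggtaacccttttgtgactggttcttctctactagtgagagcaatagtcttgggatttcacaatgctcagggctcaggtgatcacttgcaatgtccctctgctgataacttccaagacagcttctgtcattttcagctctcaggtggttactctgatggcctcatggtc

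The match TTCCCTGAA in Ang4 begins 192 bases before the start and the match TTCCTGGAA in Pigr 40 bases after it. The Slpi window holds none. For Slpi and Pglyrp1 the RefSeq start lies inside the GENCODE span given above, and the start at the outer end of that span was not searched. Of all 32851 RefSeq promoters of this length, 8.3% hold TTCNNNGAA, and 8.46% hold the NF-kB consensus, searched on both strands. Of the members, 6 had a promoter in the table, in 7 windows, and the promoters of Dmbt1 and Pla2g2a were not analysed here. The Pglyrp1 window held the NF-kB consensus once, 93 bases before the start, and the Lypd8 and Lyz1 windows held neither motif. A match describes letters and not a bound site.

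Genes of the same families were counted as well. Of 19 relatives, 10 were tested. With IL-22, 3 of them rose (Pla2g5, Wfdc18 and Rnase1) and none fell, with IL-1b none passed, and with both 3 rose and 1 fell. Of all genes, 11.9% rose and 10.6% fell with IL-22, 0.0715% passed with IL-1b, and 13.7% rose and 13.3% fell with both. Wfdc18, a whey-acidic-protein gene related to Slpi, had 20, 16 and 18 counts unstimulated, 94, 66 and 113 with IL-22, 32, 25 and 31 with IL-1b, and 148, 143 and 130 with both. Every library with IL-22 lay above every library without it, and every IL-1b library lay above every unstimulated one. Wfdc18 rose by 2.48 ± 0.18 with IL-22 (edgeR, Benjamini-Hochberg adjusted p = 8.95e-07) and by 3.11 ± 0.18 with both (4.48e-08). Its differences of 0.67 ± 0.21 with IL-1b and 0.63 ± 0.14 with both against IL-22 did not pass (0.361 and 0.116). The peptidoglycan recognition genes Pglyrp2, Pglyrp3 and Pglyrp4 had at most 6 counts in any library, and the Slpi relative Wfdc2 stood at 0.03 ± 0.07 with IL-22.

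A wider list of 40 mucosal defence genes was counted as context, of which 39 are in the table and 21 were tested. With IL-22, 9 rose and 1 fell, with a median log2 change of 0.25, beside 11.9% and 10.6% of all genes. The 9 include Pla2g5, Wfdc18 and Rnase1, counted above among the relatives, and the near-identical Sprr2a1, Sprr2a2 and Sprr2a3. With both against unstimulated 9 rose and 2 fell, where 13.7% of all genes rose and 13.3% fell. With IL-1b none passed, where 0.0715% of all genes did, and with both against IL-22 none passed, where 0.0786% did. With both against IL-1b 10 rose and 2 fell, beside 13.3% and 13.0% of all genes. The resistin-like gene Retnlb, a goblet cell product, rose by 3.47 ± 0.59 with IL-22 (edgeR, Benjamini-Hochberg adjusted p = 0.000841). Its summed counts were 18 unstimulated, 19 with IL-1b, 180 with IL-22 and 168 with both. With so few counts otherwise, Retnlb may have passed the expression filter only through the groups with IL-22. Its p-value is then no independent support, and its place in these counts is a description. The lactoperoxidase gene Lpo rose by 2.02 ± 0.25 with IL-22 (edgeR, Benjamini-Hochberg adjusted p = 6.71e-05). Ccl28, a mucosal chemokine gene, fell by 0.52 ± 0.08 (0.000409). Sprr2a1, Sprr2a2 and Sprr2a3 stood at 0.25 to 0.27 with IL-22, and reads shared among them make these values uncertain. The bacteria-binding lectin gene Zg16 stood at 0.11 ± 0.07 and did not pass.

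No member met the rule for naming genes of like pattern. It asked for a mean of 20 counts and a range over 1 between group means, here taken on log2(CPM + 0.5). Pla2g2a came closest, with a mean of 19.6 counts and a range of 3.63 on that scale, so its nearest genes were looked up after its values were seen. Over the 4 group means of log2(CPM + 0.5), centred per gene, and among 12196 genes, the nearest were Tifa, Prss27 and Nckap5, with root mean square differences of 0.10, 0.18 and 0.22. Tifa had a mean of 12.4 CPM unstimulated, 152.8 with IL-22, 13.5 with IL-1b and 180.3 under both. Pla2g2a had 0.187 CPM unstimulated and 7.95 with IL-22, so the added 0.5 shrinks its range far more than that of Tifa. The nearness to Tifa therefore depends on this offset. The match is a description over 4 group means and carries no test.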

How the data were processed

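Polyadenylated RNA libraries (TruSeq Stranded, per the labels' protocols) were analysed from 1 deposited table that holds raw counts, 1 row per gene symbol. Per the submitters' processing notes the authors used the mouse build mm10. Aligner, counter, annotation and use of strand: not given in the sources used here. Library totals lay between 4703902 and 5804033 counts, and their precision is that of counting plus the spread of 3 libraries per group.

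In edgeR 4.0.16 (R 4.3.3), filterByExpr kept 13987 of 35869 symbols. After TMM scaling, a quasi-likelihood model with a mean for each group was fitted over all 12 libraries, which leaves 8 residual degrees of freedom, and p-values were adjusted by Benjamini-Hochberg over all genes tested, with calls under 0.05. The SE was taken as the size of the log2 fold change divided by the square root of its F statistic. No 2 replicates were treated as the same library: over genes under 0.1 count per exon base, the chi-square statistic within a group was 2.06 to 3.04 times its degrees of freedom. The members and gene lists were chosen with earlier results of these data known.

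The 8 members were named throughout. Of each list, up to 4 called genes with the largest change per comparison were open to naming (2 where none was called). Genes of the members' families were a further list, and Zg16, Ccl28, Sprr2a1, Sprr2a2, Sprr2a3, Tifa, Prss27 and Nckap5 were chosen after their values were seen. Positions and lengths are from GENCODE M21 on GRCm38.

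Alternatives were DESeq2 1.42.0, total counts, no filter, 1 CPM in 6 libraries, a replicate block, only the 6 libraries compared, each library left out in turn, removal of the trend of log2 fold change on count per exon base (lowess, span 0.3), and counts corrected for read positions counted once. Fits without library scaling, and without unstimulated replicate 1 and IL-1b replicate 1 together, were added after seeing the data.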

Additional observations from a re-analysis of the deposited data

How the results depend on the processing

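Over the 7 tested genes and 6 comparisons, 765 alternative values kept their direction and their side of the threshold, 48 lost a call, 17 gained one and 80 changed sign. None of the 80 was called in the report, and 4, all of Pigr, were called after the change. The called changes of Pla2g2a and the call of Slpi with IL-22 held under every alternative that gave a value. Pigr with IL-22 stood at -0.05 with total counts, -0.16 without library scaling, -0.14 with the count-level trend removed, -0.22 with the position correction and -0.02 without unstimulated and IL-1b replicate 1. Pigr with both against unstimulated stood at -0.02 with total counts, -0.13 without scaling, -0.11 with the trend removed, -0.17 with the position correction and 0.00 without those replicates, and with both against IL-1b at -0.04, -0.17, -0.13 and -0.27 under the first 4 of these. Pigr with IL-1b stood at -0.02 without those replicates, and its interaction at -0.02 without scaling and -0.05 with the position correction. Without scaling, Ang4 with IL-22 was -0.08 and Pglyrp1 with both against IL-1b was -0.01. With the trend removed, Ang4 with IL-22 was -0.01. Lypd8 with IL-1b was 0.01 with total counts, 0.02 without scaling and 0.00 with the trend removed. Without scaling the interactions of Lypd8 and Pglyrp1 were -0.01 and -0.02, the Pglyrp1 interaction was -0.01 with the position correction, and the Dmbt1 interaction was 0.03 without those replicates.

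Without 1 library, uncalled values that changed sign had these ranges. With IL-1b, Dmbt1 ranged from -0.06 to 0.02, Lypd8 from -0.06 to 0.04, Pigr from -0.01 to 0.05 and Pla2g2a from -0.20 to 1.21. Pigr ranged from -0.04 to 0.03 with IL-22, from 0.00 to 0.06 with both and from -0.03 to 0.04 with both against IL-1b. With both against IL-22, Dmbt1 ranged from -0.10 to 0.00, Lypd8 from -0.07 to 0.05, Pglyrp1 from -0.03 to 0.11, Pigr from -0.01 to 0.06, Slpi from -0.28 to 0.03 and Pla2g2a from -0.25 to 0.12. The interaction ranged from -0.06 to 0.05 for Dmbt1, -0.06 to 0.07 for Lypd8, -0.08 to 0.08 for Pglyrp1, -0.04 to 0.05 for Pigr, -0.32 to 0.00 for Slpi and -1.26 to 0.14 for Pla2g2a. The fit without library scaling shifted the median of all genes by -0.16 with IL-22, -0.15 with both and -0.19 with both against IL-1b. Lypd8 could not be given the position correction, since its highest count, 1302, passed its 1284 exon bases. With each position counted once that could not occur at this exon length, so the premise of the correction is uncertain for the other genes too.

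With both against unstimulated, members called, 5 in the report, were 3 with total counts, 3 with the replicate block, 3 with DESeq2, 2 without unstimulated and IL-1b replicate 1, 1 without scaling and 1 with the trend removed, where Dmbt1 was among those lost (0.0555 and 0.147). Without 1 library they were 2 to 6. Genes called there, 3783 in the report, were 3757, 3456, 3121, 2756, 3442 and 3118 under these settings in turn, and 2648 to 4055 without 1 library. With both against IL-1b the 3 members called became 1 with the trend removed, where genes called went from 3682 to 2953. With IL-22 members called were 3 to 5 without 1 library. With IL-1b, 1 member was called with no filter, and genes called, 10 in the report, were 212 with no filter, 32 with DESeq2 and 9 to 28 without 1 library. For both against IL-22, genes called, 11 in the report, were 336 with no filter, 87 with DESeq2, 7 with the block, 6 with only the 6 libraries, 5 without both replicates named above and 3 to 72 without 1 library. For the interaction, genes called, 0 in the report, were 50 with no filter, 4 with DESeq2 and 0 to 1 without 1 library. Genes called with IL-22, 3144, were 1992 to 3350 without 1 library. The causes were not tested. Replicate numbers were not treated as pairs: same-numbered libraries had correlations of -0.173 to 0.172 and 2 of 12 were closest to their own number. Under the block, the calls lost were Slpi (0.0688) and Pglyrp1 (0.0546) with both against unstimulated and Lypd8 with both against IL-1b (0.0613). Depth limits Pla2g2a without IL-22 and Lyz1, with a few counts per library.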
